A study of Mus musculus with 11 samples.

Results

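The insulin-like growth factor (IGF) system of the mouse ovary is described here through 9 genes, which encode the ligand IGF1, its receptor, 6 IGF binding proteins and the protease pregnancy-associated plasma protein A (PAPP-A). They were taken by gene symbol from the 54232 genes of the deposited count table, and each symbol matched 1 row. RNA of whole ovaries of wild-type (WT) mice was sequenced in bulk after selection of mRNA, with no treatment named in the labels. The labels gave 4 libraries at 2 months of age, 4 at 18 months and 3 at 24 months. Names of the 2 month libraries carried 8 weeks and those of the 24 month libraries 22 months, and the groups are called here by the sample labels. In the study's terms the ages are reproductively young, old and post-reproductive ovaries. The sources used here give neither a strain nor the number of animals behind a library, so p-values reflect the spread between these samples, which may be technical.

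IGF1 is made in the liver and also locally in the ovary, where granulosa cells are a known source, and it acts through a receptor tyrosine kinase. Binding proteins hold IGFs outside the cell and mostly keep them from the receptor. PAPP-A is a secreted metalloprotease that cuts binding proteins, above all IGFBP4, and so frees IGF in growing follicles.

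Total counts lay between 5231724 and 33407509 per library. The 18 month libraries numbered 3 and 4 differed by about counting noise (chi-square per gene 1.10, where the next closest pair within an age had 28.7), so they were summed and counted as 1 sample. All values therefore rest on 4 samples at 2 months, 3 at 18 months and 3 at 24 months. Ovarian markers were present at every age, including those of granulosa cells, whose summed level over 9 genes lay between 3019 and 4040 CPM (counts scaled to library size with TMM factors) at 2 months, between 1691 and 3077 at 18 months and between 1463 and 3756 at 24 months. The library of 24 month replicate 3 stood apart in 5 oviduct epithelium markers, with a summed level of 702 CPM, against 5.52 and 55.1 CPM in the other 24 month samples.

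Of the genes called in a comparison, Igfbp2, Igfbp4, Igfbp5 and Igfbp6, the 120 bases before the RefSeq start of transcription (GRCm38.p6, the build of mm10) are shown because these are the members whose transcripts differed with age. Igfbp2 and Igfbp5 are neighbours on chromosome 1, on opposite strands with 5457 bases between them. Capitals mark 3 short motifs that were searched on both strands, the TATA box, a variant of it and the GC box.
Igfbp2, chr1:72824360-72824479, plus strand: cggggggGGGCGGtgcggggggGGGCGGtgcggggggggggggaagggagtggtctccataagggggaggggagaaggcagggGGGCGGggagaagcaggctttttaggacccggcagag
Igfbp4, chr11:99041124-99041243, plus strand: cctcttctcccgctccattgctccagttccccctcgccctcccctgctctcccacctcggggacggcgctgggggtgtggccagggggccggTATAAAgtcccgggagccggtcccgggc
Igfbp5, chr1:72874866-72874985, minus strand: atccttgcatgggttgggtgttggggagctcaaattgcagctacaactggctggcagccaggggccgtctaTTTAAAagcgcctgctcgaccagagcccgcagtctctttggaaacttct
Igfbp6, chr15:102144066-102144185, plus strand: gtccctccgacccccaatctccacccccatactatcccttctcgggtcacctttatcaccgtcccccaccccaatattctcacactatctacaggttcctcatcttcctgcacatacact

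None of the motifs searched was shared by the 4 sequences. Igfbp4 held the TATA box, TATAAA, 28 bases before the start, which 6.34% of 32851 mouse promoter windows of the same length hold. Igfbp5 held the variant, TTTAAA, 49 bases before the start, found in 5.20% of the windows. Igfbp2 held 3 copies of the GC box, GGGCGG, a motif of 26.5% of the windows, and its window was 75.0% G and C, against a median of 54.2% over all windows. The window of Igfbp6 held none of these letters, and its RefSeq start lies 176 bases before the start given in the count table. For Igfbp2 the RefSeq start lies 23 bases before the start in the count table, and for Igfbp4 they are the same. For Igfbp5 it lies 19 bases after that start, so the last 19 bases of its window are within the gene as counted.

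All 9 genes passed the filter on low counts. Scaled by transcript length (RPKM, which is CPM per kilobase of exon), Igfbp7 was the highest of the 9 at every age, at 579.98 ± 123.5 RPKM at 2 months (SD, n = 4), 532 ± 149 at 18 months (SD, n = 3) and 455 ± 99.7 at 24 months (SD, n = 3). IGFBP7 is a secreted relative of the binding proteins with weak affinity for IGFs. At 2 months the order below it was Igfbp4, Igfbp5, Igfbp6, Igfbp2, Igfbp3, Igf1r, Igf1 and Pappa, with mean levels of 81.8 RPKM for Igfbp4 and 3.48 RPKM for Pappa. The ranges of neighbours overlapped for Igfbp4 with Igfbp5, Igfbp5 with Igfbp6, Igfbp3 with Igf1r and Igf1r with Igf1. At 18 months Igf1 stood above Igf1r with overlapping ranges, and at 24 months Igfbp5 stood above Igfbp4, also with overlapping ranges.

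**Figure D1:**
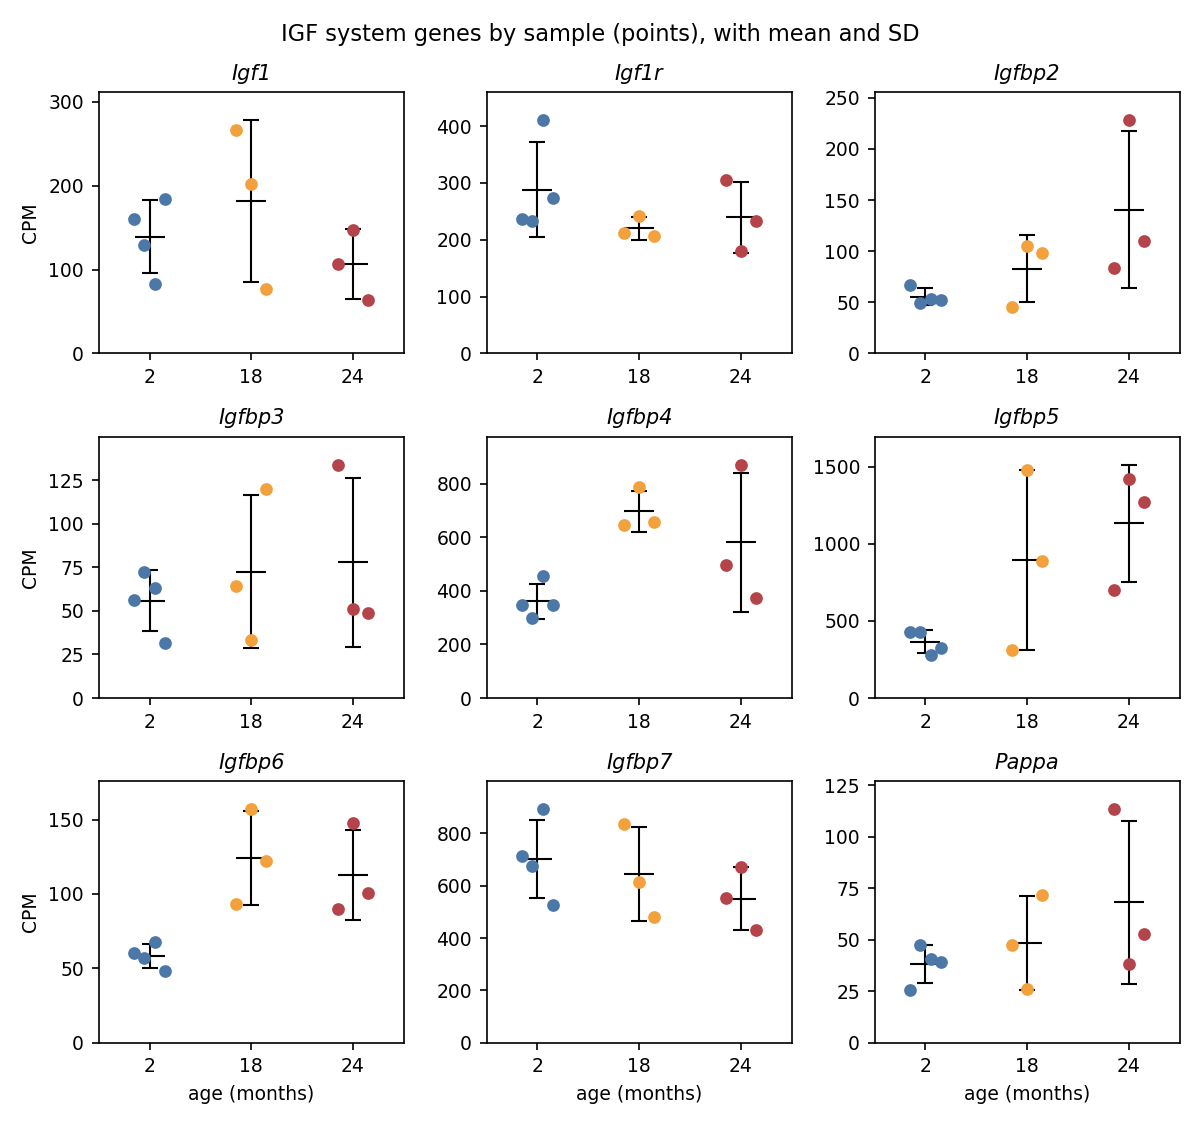
Level of each of the 9 genes (CPM, linear axis from 0) against age in months, with 1 point per sample and the mean and SD in black (n = 4, 3 and 3 samples). For Igfbp6 all samples of 18 and 24 months lie above the highest 2 month sample of 67.9 CPM, while the ages overlap for Igf1, Igf1r, Igfbp3, Igfbp7 and Pappa.

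Old ovaries at 18 months were first set against young ones at 2 months. Of the 9 genes, 2 rose and none fell, Igfbp4 and Igfbp6, both binding proteins, where 11.6% of the 20331 genes tested were called. By direction, 6.04% of all genes rose and 5.51% fell. Scaling by library totals alone instead of TMM turned the share of calls that were higher into 66.7%, where it was 52.3%. Outside the binding proteins no member was called at 18 months. Per gene, the median log2 fold change over the 9 members was 0.39, against 0.01 over all genes tested. With DESeq2 3 members were called, with limma-voom 2, and 3 members had an unadjusted p below 0.05 in edgeR, as did 29.9% of all genes. For Igfbp4 and Igfbp6 the ages did not overlap, as for 13.7% of all genes in that direction.

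Igfbp6 (ENSMUSG00000023046, chromosome 15, 102144362 to 102149511, plus strand) encodes a binding protein with a preference for IGF2. Its level was 60.6, 57.1, 67.9 and 48.5 CPM in the 2 month samples, 93.5, 157 and 122 CPM in the 18 month samples and 90.2, 147 and 101 CPM in the 24 month samples. Every sample of the older ages lay above every 2 month sample, and the older ages overlapped. At 18 months Igfbp6 rose 2.12-fold relative to 2 months (log2 1.08, SE 0.21, edgeR quasi-likelihood test, Benjamini-Hochberg adjusted p = 0.0179).

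Igfbp4 (ENSMUSG00000017493, chromosome 11, 99041244 to 99054392, plus strand) encodes the binding protein that PAPP-A cuts. It had 346, 298, 454 and 347 CPM at 2 months, 647, 786 and 656 CPM at 18 months, and 498, 870.3 and 374 CPM at 24 months. The 18 month samples lay close together and all above the 2 month samples, while at 24 months replicate 3 fell within the 2 month range. Igfbp4 rose 1.93-fold at 18 months relative to 2 months (log2 0.95, SE 0.26, edgeR adjusted p = 0.0465).

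Igfbp5 (ENSMUSG00000026185, chromosome 1, 72857932 to 72874884, minus strand) encodes a binding protein that also attaches to the extracellular matrix. Its level was 426, 427, 279.8 and 324 CPM at 2 months, 312, 1478 and 891 CPM at 18 months, and 702, 1422 and 1274 CPM at 24 months. At 18 months replicate 1 lay within the 2 month range, and the other samples were above it. The 18 month samples spanned a 4.74-fold range, and their SD on the log2 scale of 1.14 was above that of 94.7% of the genes tested. The log2 fold change at 18 months was 1.29 (SE 0.44, 95% interval 0.30 to 2.29) and did not pass the test (edgeR adjusted p = 0.0865). When each sample was left out in turn it lay between 0.72 and 1.71 (edgeR adjusted p = 0.0259 to 0.324). It passed in 1 of 10 such fits, the one without 18 month replicate 1 (log2 1.71, edgeR adjusted p = 0.0259).

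Igfbp2 (ENSMUSG00000039323, chromosome 1, 72824503 to 72852474, plus strand), which encodes a binding protein for both IGFs, had 67.4, 49.04, 53.04 and 52.4 CPM at 2 months, 45.1, 105 and 98.2 CPM at 18 months and 83.8, 228 and 110.0 CPM at 24 months. At 18 months replicate 1 was below all 2 month samples and the others above them. The log2 fold change at 18 months was 0.58 (95% interval -0.24 to 1.39, edgeR adjusted p = 0.316, SE 0.36).

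The ligand, receptor and protease did not pass the test. Igf1 (ENSMUSG00000020053, chromosome 10, 87858265 to 87937042, plus strand) had 160, 129, 83.05 and 184 CPM at 2 months, 267, 202 and 76.7 CPM at 18 months, and 107, 147 and 64.2 CPM at 24 months. In each age the lowest sample was replicate 3 (at 18 months the summed one), and the ages overlapped throughout. The log2 fold change of Igf1 at 18 months was 0.39 (95% interval -0.57 to 1.34, edgeR adjusted p = 0.581, SE 0.43), so the interval still holds changes of over 2-fold upwards. Igf1r (ENSMUSG00000005533, chromosome 7, 67952827 to 68233668, plus strand), the IGF1 receptor, ranged from 233 to 411 CPM at 2 months, with a median of 254, from 206 to 242 at 18 months and from 181 to 305 at 24 months. Its log2 fold change at 18 months was -0.39 (95% interval -0.91 to 0.13, edgeR adjusted p = 0.292, SE 0.23).

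Pappa (ENSMUSG00000028370, chromosome 4, 65124174 to 65357509, plus strand), the gene of PAPP-A, had 25.7, 47.6, 40.9 and 39.2 CPM at 2 months, 47.6, 26.1 and 71.9 CPM at 18 months and 113, 38.3 and 52.9 CPM at 24 months. The ages overlapped, and 24 month replicate 1 was the highest sample. The log2 fold change at 18 months was 0.34 (edgeR adjusted p = 0.628, SE 0.41). Igfbp3 (ENSMUSG00000020427, chromosome 11, 7206086 to 7213923, minus strand), the main IGF carrier of blood, had its highest values in the same samples as Pappa at both older ages, 120 CPM in the summed 18 month sample and 134 CPM in 24 month replicate 1. Its log2 fold change at 18 months was 0.37 (edgeR adjusted p = 0.648, SE 0.49). Igfbp7 (ENSMUSG00000036256, chromosome 5, 77349240 to 77408041, minus strand) ranged from 528 to 891 CPM at 2 months and from 479 to 836 at 18 months, with a log2 fold change of -0.12 (edgeR adjusted p = 0.77, SE 0.24). Polr2b overlaps an exon of Igfbp7 on the opposite strand and has up to 5230 counts over its whole gene in a library. Without the strand setting of the counting, how reads within the overlap were assigned is not known.

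The call of Igfbp6 at 18 months was lost without replicate 2 of 18 months, without the summed sample, and without 2 month replicate 1, 2 or 4 (edgeR adjusted p = 0.0519 to 0.0592), as was that of Igfbp4 without any of these or 18 month replicate 1 (0.0656 to 0.137). The log2 fold changes of Igfbp6 stayed between 0.88 and 1.27 and those of Igfbp4 between 0.85 and 1.06 when each sample was left out in turn.

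**Figure D2:**
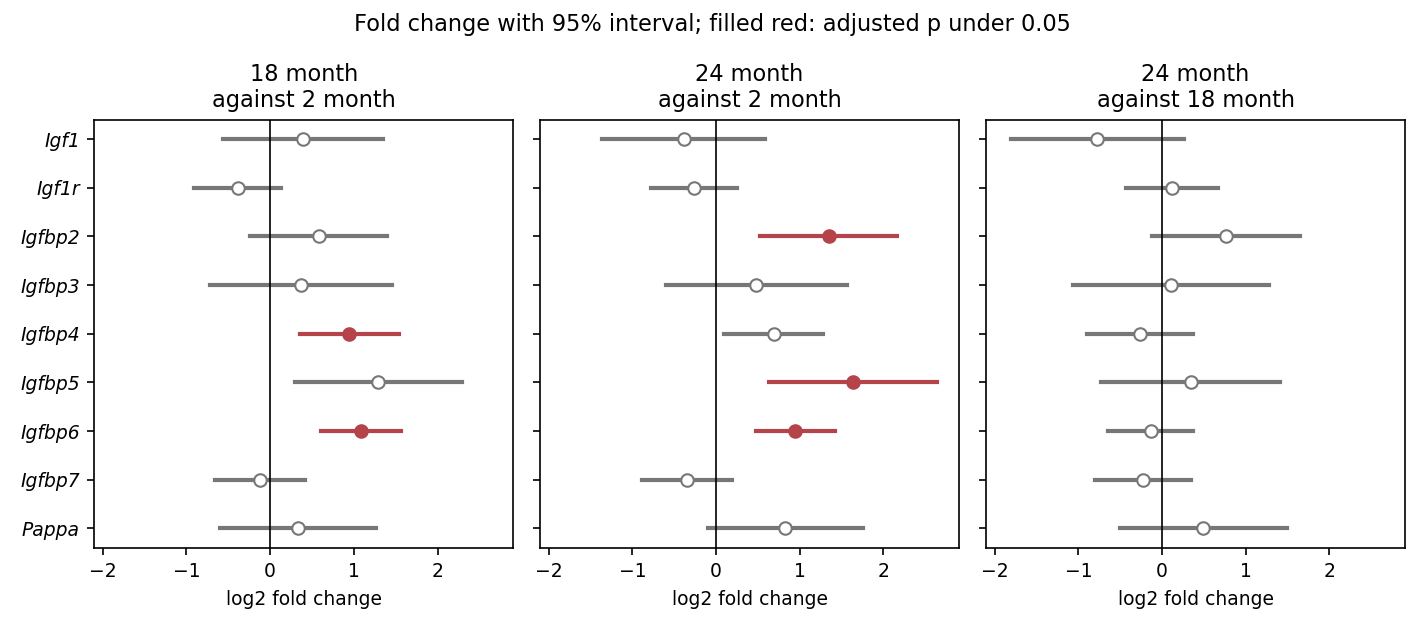
Log2 fold change (horizontal axis) of each of the 9 genes in the 3 comparisons, with bars for the 95% interval from edgeR. Filled red points passed an adjusted p of 0.05 over all genes, and these are Igfbp4 and Igfbp6 in 18 against 2 months and Igfbp2, Igfbp5 and Igfbp6 in 24 against 2 months.

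Post-reproductive ovaries at 24 months were then set against those of 2 months. Of the 9 genes, Igfbp2, Igfbp5 and Igfbp6 rose and none fell. At this age 35% of all genes tested were called, 19.2% higher and 15.8% lower, so 3 of 9 is a share near that of all genes. With library totals alone the share of calls that were higher was 73.0%, where TMM gave 54.9%. The comparison shares its 2 month samples with that of 18 months, and the fold changes are set side by side only. DESeq2 and limma-voom called 4 members each, and 4 had an unadjusted p below 0.05 in edgeR, where 46.7% of all genes did.

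Igfbp5 rose 3.11-fold at 24 months relative to 2 months (log2 1.64, SE 0.45, edgeR adjusted p = 0.0208), to a mean of 1133 ± 380.1 CPM at 24 months (SD, n = 3), against 364 ± 74.3 CPM at 2 months (SD, n = 4). Igfbp2 rose 2.54-fold (log2 1.34, SE 0.36, edgeR adjusted p = 0.0203), to a mean of 141 ± 77.03 CPM, against 55.5 ± 8.13 CPM at 2 months. Igfbp6 rose 1.93-fold (log2 0.95, SE 0.21, edgeR adjusted p = 0.0102), to 113 ± 30.5 CPM, against 58.5 ± 8.06 CPM. For these 3 genes every 24 month sample lay above every 2 month sample, as it did for 21.7% of all genes.

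Igfbp4 did not pass at 24 months, with a log2 fold change of 0.69 (95% interval 0.10 to 1.27, edgeR adjusted p = 0.0675, SE 0.26). When each sample was left out in turn the log2 fold change lay between 0.27 and 0.94 (edgeR adjusted p = 0.024 to 0.334). Igfbp4 passed in 1 of 10 such fits, the one without 24 month replicate 3 (log2 0.94, edgeR adjusted p = 0.024). With all samples it was called by DESeq2 (adjusted p = 0.0392), by limma-voom (0.00397) and by edgeR with library totals alone (0.0219). Pappa had a log2 fold change of 0.83 (95% interval -0.10 to 1.75, edgeR adjusted p = 0.142, SE 0.41), Igfbp3 of 0.48 (SE 0.48), Igf1 of -0.39 (SE 0.43), Igfbp7 of -0.35 (SE 0.24) and Igf1r of -0.27 (SE 0.23). None of these 5 passed (edgeR adjusted p = 0.142 to 0.505).

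At 24 months the call of Igfbp6 held when any sample was left out (edgeR adjusted p = 0.00672 to 0.0358). That of Igfbp2 was lost without 24 month replicate 2 (log2 0.81, adjusted p = 0.0835) or 2 month replicate 2 (log2 1.31, adjusted p = 0.0509), and that of Igfbp5 without 24 month replicate 2 or 3 or 2 month replicate 3 or 4 (log2 1.44 to 1.59, adjusted p = 0.0521 to 0.0671). With no filter on low counts, where more genes share the adjustment, Igfbp2 and Igfbp5 at 24 months and Igfbp4 at 18 months also missed the threshold (edgeR adjusted p = 0.0534, 0.0581 and 0.0599).

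Lastly, 24 months was set against 18 months. None of the 9 genes passed in edgeR, DESeq2 or limma-voom, none had an unadjusted p below 0.05 in edgeR (10.4% of all genes did), and the lowest was 0.0814 for Igfbp2. For all 9 genes the samples of both ages overlapped, while 6.73% of all genes were higher without overlap. The share of all genes lower without overlap was not counted. Of all genes 0.00492% were called, 1 gene, which was higher, and 0% were called lower, while with replicate number as a block 0 were called. Igfbp2 had a log2 fold change of 0.76 (SE 0.39, 95% interval -0.12 to 1.64) and Igf1 of -0.78 (SE 0.46, 95% interval -1.81 to 0.26). These values are from the fit without a replicate block. The labels do not pair samples of these ages, and pairs are formed here by replicate number only. In that order Igf1 had 107, 147 and 64.2 CPM at 24 months, against 267, 202 and 76.7 CPM at 18 months. It was lower at 24 months in 3 of 3 pairs. Igfbp2 had 83.8, 228 and 110.0 CPM at 24 months, against 45.1, 105 and 98.2 CPM at 18 months, higher at 24 months in 3 of 3 pairs. Igfbp6 was lower at 24 months in 3 of 3 pairs, by small amounts (log2 -0.14, SE 0.23), and the other 6 members moved in both directions. The share of all genes that moved 1 way in 3 of 3 pairs was not counted, so these signs are a description only. With only these ages and the replicate number as a block, Igf1 had a log2 value of -0.67 (edgeR adjusted p = 0.475) and Igfbp2 of 0.73 (0.448), and no member passed. The median over the 9 genes was 0.11, against 0.03 over all genes.

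Each binding protein was also expressed as a share of the summed RPKM of Igfbp2 to Igfbp7, which shows the make-up of the pool independently of scaling between libraries. Igfbp7 made up 70.1 ± 2.87% of the pool at 2 months (SD, n = 4), 52.2 ± 13.5% at 18 months (SD, n = 3) and 46.9 ± 5.58% at 24 months (SD, n = 3). Its share was 67.04 to 74.0% in the 2 month samples, and all 24 month samples lay below that, at 43.4 to 53.4%. At 18 months replicate 1 had 67.9%, within the 2 month range, and the other samples had 44.3 and 44.6%.

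Shares add up to the whole, so the other binding proteins held more of the pool at the older ages. Igfbp5 had 7.57 ± 1.95% at 2 months, 14.4 ± 8.45% at 18 months and 19.5 ± 6.17% at 24 months. Igfbp6 had 6.42 ± 0.23%, 10.95 ± 2.34% and 10.4 ± 0.807% at 2, 18 and 24 months, and Igfbp4 10.02 ± 1.56%, 15.5 ± 1.11% and 13.1 ± 2.64%. Igfbp2 and Igfbp3 were minor parts, at 7.46 ± 2.26% and 2.73 ± 1.98% at 24 months and at 3.72 ± 0.73% and 2.15 ± 0.55% at 2 months. These are descriptions of the samples with no test.

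**Figure D3:**
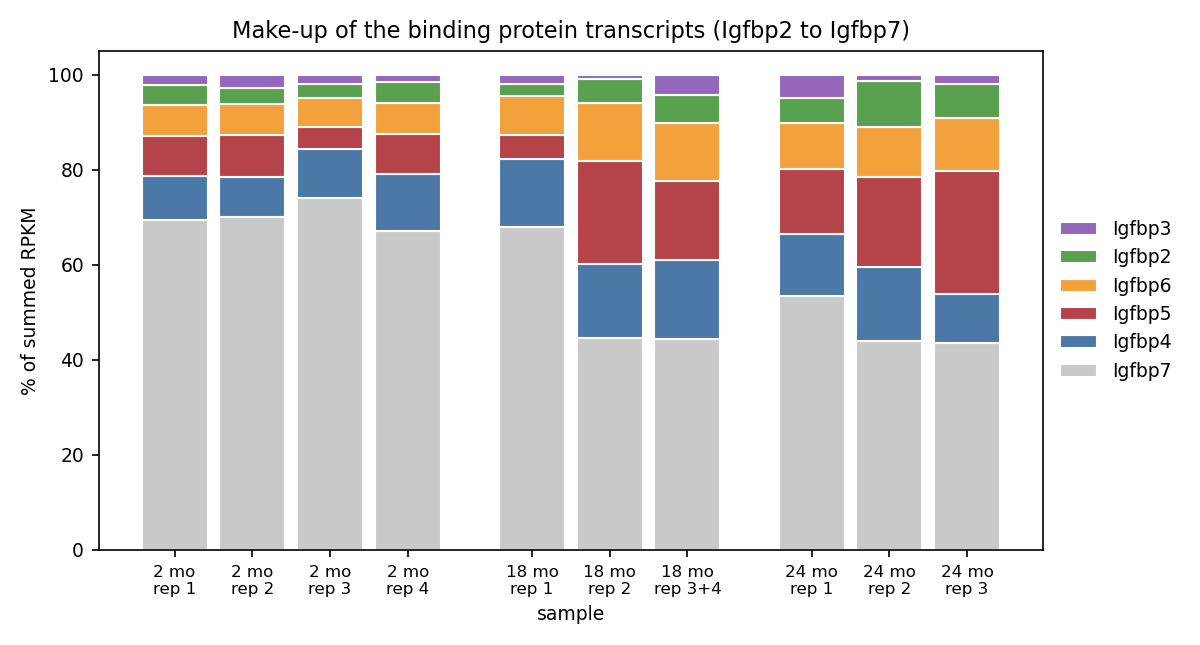
Percent of the summed length-scaled level (RPKM) of Igfbp2 to Igfbp7 held by each gene, with 1 stacked bar per sample, ordered by age. The grey Igfbp7 part is 67.04 to 74.0% at 2 months and 43.4 to 53.4% at 24 months, and 18 month replicate 1, at 67.9%, looks like the 2 month samples.

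Set against the ligand, the summed RPKM of the 6 binding proteins was 52.5, 61.04, 119 and 35.04 times that of Igf1 in the 2 month samples, 37.9, 55.9 and 115 times at 18 months and 79.2, 84.7 and 126 times at 24 months. The ages overlapped, and replicate 3 gave the highest ratio in each age. The ratio of Igfbp4 to Pappa, the protease that cuts its product, was between 15.6 and 33.6 at 2 months, between 22.8 and 75.1 at 18 months and between 10.98 and 56.8 at 24 months, also with overlap.

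Markers of cell types were counted in the same comparisons. At 18 months 6.04% of all genes rose and 5.51% fell, and at 24 months 19.2% rose and 15.8% fell. The lists are short, so a count of 1 or 2 markers is not set apart from these shares. Of 8 stroma and fibroblast markers, 2 rose at 18 months and 4 at 24 months relative to 2 months. Their summed level was between 2514 and 3313 CPM at 2 months, between 3308 and 5433 at 18 months and between 3627 and 6879 at 24 months, and the sum was highest at each older age in replicate 2, the sample that was highest for Igfbp4 and Igfbp6 at both of these ages. None of 7 smooth muscle and pericyte markers rose at 18 months and 2 did at 24 months, with a summed level of between 892 and 1097 CPM at 2 months, between 945 and 1839 at 18 months and between 691 and 1816 at 24 months, again highest in replicate 2 at both older ages.

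Of 8 surface epithelium markers, 5 rose at 18 months and 6 at 24 months, with summed levels of between 109 and 143 CPM at 2 months, between 228 and 556 at 18 months and between 203 and 688 at 24 months. Of 5 oviduct epithelium markers, 1 rose at 18 months and 5 at 24 months, with a summed level between 1.67 and 5.79 CPM in the 2 month samples, of 5.81, 65.9 and 42.6 CPM in the 18 month samples and of 5.52, 55.1 and 702 CPM in the 24 month samples. Replicate 1, which had the least Igfbp5 and Igfbp2 at both older ages, was the lowest sample there for stroma, surface epithelium and oviduct epithelium markers alike.

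All 9 macrophage markers rose at both ages, with summed levels of between 329 and 450 CPM at 2 months, between 713 and 1034 at 18 months and between 937 and 1080 at 24 months, and all 9 oocyte markers fell. Of 7 lymphocyte markers, 2 rose at 18 months and 5 at 24 months, with summed levels of 35.5 CPM or less. Of 7 endothelium markers 1 rose at each of these ages, and of 4 adipocyte markers, 2 of them tested, none at 18 months and 1 at 24 months. Of 6 theca and steroid cell markers none was called at 18 months and 1 fell at 24 months, and of 6 corpus luteum markers none was called at 18 months and 2 fell at 24 months. Of 9 granulosa cell markers, 3 fell at 18 months and 4 at 24 months. Replicate 2, highest for stroma and muscle markers at both older ages, was the lowest sample there for granulosa cell, macrophage and oocyte markers. It had 1691 and 1463 CPM at 18 and 24 months for granulosa cell markers and 713 and 937 CPM for macrophage markers. The part of these cell types in the levels of the 9 genes was not tested, and in bulk samples fewer cells of a type and less RNA per cell cannot be told apart. Of 4 liver markers, 2 of them tested, 1 fell at 18 months and 1 at 24 months. Ttr was at 0 in every sample. The summed level of the liver markers was between 13.6 and 49.4 CPM at 2 months, between 5.24 and 11.7 at 18 months and between 3.25 and 8.52 at 24 months.

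For each called member the genes with the most alike pattern were found by the root mean square difference of mean-centred log2 CPM over the 10 samples. They were Loxl1 (0.14) and Kank4 (0.19) for Igfbp4, Tdo2 (0.15) and Kank4 (0.16) for Igfbp6, Abi3bp (0.26) for Igfbp2, and Dcaf12l2 (0.27) and Cgn (0.29) for Igfbp5. The median over the genes searched, those tested with an established symbol other than the members, was 0.63 to 0.97. The smallest of so many differences lie below the median whatever the gene, and shared regulation was not tested. Among the members themselves Igfbp4 and Igfbp6 were the most alike pair (0.26) and Igf1 and Igfbp5 the least alike (1.22).

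Around the 9 genes, a list of 46 further genes of the pathway was examined, of which 41 passed the filter. At 18 months 1 rose and 1 fell, with a median log2 fold change of 0.03, so 2 of 41 were called where 11.6% of all genes were. At 24 months relative to 2 months 3 rose and 6 fell, with a median of -0.03, so 9 of 41 were called where 35% of all genes were. Between 24 and 18 months none passed in edgeR, with 6 of 41 at an unadjusted p below 0.05, where 10.4% of all genes were. DESeq2 called 1 of the list, Igfals, among 194 genes in all, and limma-voom none. The smallest adjusted p in edgeR was that of Igfals (log2 -4.40, SE 1.08, adjusted p = 0.387). Pappa2 (log2 1.74, SE 0.54) and Htra1 (log2 -1.01, SE 0.34) followed with the same adjusted p = 0.443 in edgeR.

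Pappa2 encodes the relative of PAPP-A that cuts IGFBP3 and IGFBP5. It had 0.241, 0.311, 0.406 and 0.457 CPM in the 2 month samples, from 7 to 15 counts each, 1.13, 1.36 and 2.32 CPM at 18 months and 5.15, 8.96 and 1.77 CPM at 24 months. Every sample of the older ages lay above every 2 month sample, at levels that stayed low. Of all genes, 13.7% were higher without overlap at 18 months and 21.7% at 24 months. Pappa2 rose 4.44-fold at 18 months (log2 2.15, SE 0.53, edgeR adjusted p = 0.0323) and 14.8-fold at 24 months (log2 3.89, SE 0.54, edgeR adjusted p = 0.00221) relative to 2 months. The call at 18 months was lost when any one of the 2 month samples, 18 month replicate 2 or the summed sample was left out (edgeR adjusted p = 0.0503 to 0.11), and with limma-voom (adjusted p = 0.0776), and that at 24 months held with each sample left out in turn.

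Stc2 encodes stanniocalcin 2, an inhibitor of PAPP-A. It had 11.1, 16.2, 7.55 and 15.1 CPM at 2 months, 15.6, 45.8 and 41.3 CPM at 18 months and 16.1, 78.02 and 96.97 CPM at 24 months. At 24 months replicate 1 lay within the 2 month range and the others were far above it, as with Igfbp5 at 18 months. Stc2 rose 5.10-fold at 24 months relative to 2 months (log2 2.35, SE 0.57, edgeR adjusted p = 0.0137). The call held with each sample left out in turn (edgeR adjusted p = 0.00248 to 0.0499). It was lost with only these ages and the replicate number as a block (edgeR adjusted p = 0.101).

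The proteases Htra1 and Adam9 fell at 24 months. Htra1, a serine protease that can cut IGFBP5, averaged 295 ± 46.1 CPM at 24 months (SD, n = 3), against 888 ± 114 CPM at 2 months (SD, n = 4), a fall on the log2 scale of -1.59 (SE 0.33, edgeR adjusted p = 0.00741). Adam9, a metalloprotease of the cell surface, averaged 75.4 ± 6.64 CPM, against 120 ± 24.9 CPM (log2 -0.67, SE 0.20, edgeR adjusted p = 0.0273). Htra1 was called with each sample left out in turn, and the call of Adam9 was lost without 24 month replicate 2 or 3 or 2 month replicate 1 or 3 (edgeR adjusted p = 0.0555 to 0.0824).

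Igfals, the acid-labile subunit that joins IGF carriers in blood, was at 2, 6 and 3 counts in the 24 month samples, against 41, 26, 54 and 9 counts in the 2 month samples. At 18 months it had 123, 86 and 3 counts, so the summed sample stood far below the others. Igfals fell by 3.32 on the log2 scale at 24 months relative to 2 months (edgeR adjusted p = 0.0342, SE 1.04). The call was lost when any one of the 24 month samples or 2 month replicate 1 or 3 was left out (edgeR adjusted p = 0.0691 to 0.102). It was also lost with no filter on low counts (edgeR adjusted p = 0.0617) and with limma-voom, where the log2 fold change was -2.25 (adjusted p = 0.136). Igf2, the other ligand, was near 1 CPM or less in all samples, with a mean of 0.93 ± 0.20 CPM at 24 months, against 0.52 ± 0.21 CPM at 2 months, and did not pass (edgeR adjusted p = 0.0765). The insulin gene Ins1 had no count in any sample, and Ins2 had at most 11. With Igfbp1, Igfbpl1 and Irs4 these are the genes of the list under the filter. The IGF2 receptor Igf2r and the insulin receptor Insr had log2 fold changes of 0.07 (SE 0.09) and -0.08 (SE 0.16) at 24 months relative to 2 months and did not pass.

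Within the cell, Foxo1, a transcription factor that AKT keeps out of the nucleus, had 301, 315, 278 and 325 CPM at 2 months, 144, 198 and 183 CPM at 18 months and 156, 137 and 214 CPM at 24 months. All samples of the older ages lay below the 2 month samples, and the share of all genes that did so was not counted. Foxo1 fell by 0.80 on the log2 scale at 18 months (edgeR adjusted p = 0.0217, SE 0.17) and by 0.85 at 24 months (edgeR adjusted p = 0.00658, SE 0.17). The call at 18 months was lost without replicate 1 of 18 months, without the summed sample, and without 2 month replicate 1, 2 or 4 (edgeR adjusted p = 0.0523 to 0.0677), and with library totals alone in place of TMM (0.0523), and that at 24 months held with each sample left out in turn.

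At 24 months Grb14, an adaptor that inhibits the insulin receptor, fell by 0.77 on the log2 scale (edgeR adjusted p = 0.0153, SE 0.19), and Pdpk1, the kinase that phosphorylates AKT, fell by 0.41 (edgeR adjusted p = 0.0225, SE 0.12). Pik3r2, a regulatory subunit of the lipid kinase PI3K, rose by 0.29 (edgeR adjusted p = 0.0365, SE 0.09). The calls of Grb14 and Pdpk1 were lost without 24 month replicate 2 (edgeR adjusted p = 0.0517 and 0.0839). That of Pik3r2 was lost when any one of the 2 month samples or 24 month replicate 2 or 3 was left out (edgeR adjusted p = 0.0573 to 0.135), and with no filter on low counts (0.112). The other 12 tested genes of the lipid kinase and AKT branch did not pass, nor did any of 6 genes of the growth hormone arm, among them the receptor Ghr (log2 0.07, SE 0.24).

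**Figure D4:**
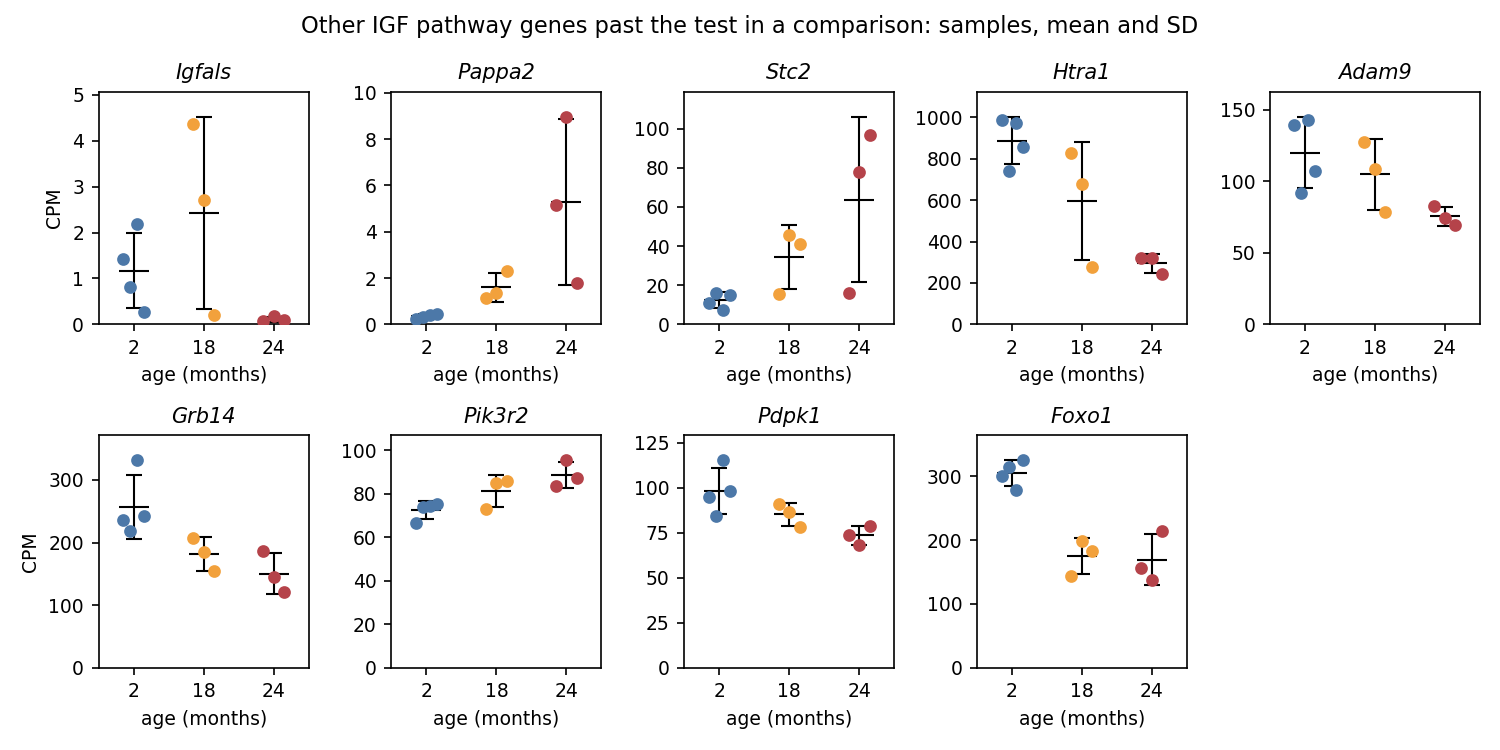
Level (CPM, linear axis from 0) of the 9 further pathway genes that passed the test in a comparison, against age in months, with 1 point per sample and the mean and SD in black. Pappa2, Foxo1 and Grb14 separate every sample of the older ages from every 2 month sample. At the older ages Pappa2 is at 1.13 CPM or more, Foxo1 at 214 CPM or less and Grb14 at 207 CPM or less. Of all genes tested, 13.7% were higher without overlap at 18 months and 21.7% at 24 months. The share lower without overlap was not counted.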

How the data were processed

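The authors deposited a table of raw counts per gene with 1 column per library, made per the labels' protocols from a stranded mRNA kit. The submitters' processing notes name FastQC, cutadapt, STAR, HTSeq and mm10. For their versions, the gene annotation and whether HTSeq used strand, those notes and labels give nothing. Groups come from the age in each title. Genes were kept by filterByExpr (20331), scaled by TMM and tested with edgeR 4.0.16 (glmQLFit, robust, two-sided, R 4.3.3), all ages in 1 model with 7 residual degrees of freedom, at a Benjamini-Hochberg adjusted p of 0.05. CPM uses the TMM-scaled totals of the kept genes, and RPKM divides by the union exon length in GENCODE M21, where all 9 members had the table's coordinates. The SE is the log2 fold change over the square root of F. The test was checked on simulated counts.

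The members and lists were chosen with earlier results of these data known. The text names all members, each pathway gene past the threshold in any comparison or, with none there, the 2 with the smallest adjusted p, and the 2 genes most alike each called member. For Igfbp2, 1 of these is not reported here. Other names and the ratios to Igf1 and Pappa were chosen after values were seen. Deviations from the age means correlated at 0.398, 0.283 and 0.148 in the same-numbered pairs of 18 and 24 months. In the other pairs of these ages they correlated between -0.339 and 0.144. Deviations from a mean of so few samples cancel out, so some positive values are forced, and these values do not show that the numbers pair the samples. Printed values are from the fit without a block unless the block is named. The 8 members in the RefSeq promoter table (GRCm38.p6) could be matched. Alternatives were other scalings, filters, DESeq2 1.42.0, limma-voom (limma 3.58.1), a replicate block, fewer ages, unsummed libraries and leaving out each sample.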

Additional observations from a re-analysis of the deposited data

Results flagged for a closer look

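Pik3r2, the regulatory subunit of the lipid kinase PI3K, stood at 66.3 CPM in 2 month replicate 1, apart from the other 2 month samples. Its gap to the nearest of them was 0.866 of the whole range, above Dixon's 95% critical value for 4 samples. Of 18 gene groups examined this way 1 stood out, and chance gives about 1 in 20. Without that sample Pik3r2 at 24 months relative to 2 months had a log2 fold change of 0.23 and did not pass (edgeR adjusted p = 0.114).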

How the results depend on the processing

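No called result changed sign under any alternative. At 18 months relative to 2 months 2 members were called, against 1 with no filter on low counts, 1 with a replicate block, 0 with only these ages and the block, and 0 to 2 when each sample was left out. At 24 months relative to 2 months the 3 members became 1 with no filter, 1 with the block, 0 with only these ages and the block, and 1 to 3 when each sample was left out. The labels pair no samples across ages, and same-numbered deviations of 2 month and older samples correlated between -0.109 and 0.0741. The pathway list had 2 calls at 18 months, which became 4 with all 11 libraries kept apart, 4 with DESeq2, 1 with limma-voom, 0 with the block, 1 with only these ages and the block, and 0 to 3 when each sample was left out. Its 9 calls at 24 months became 17 with library totals alone, 18 with limma-voom, 3 with only these ages and the block, and 5 to 14 when each sample was left out. Between 24 and 18 months DESeq2 called 1.

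Over all genes the 2349 calls at 18 months became 4000 with 11 libraries, 4052 with DESeq2, 1034 with the block, 541 with only these ages and the block, and 375 to 2748 when each sample was left out. The low end was without the summed 18 month sample, and 382 were called without 2 month replicate 1. The 7120 calls at 24 months became 1952 with only these ages and the block and 4283 to 7467 when each sample was left out. Between 24 and 18 months the 1 call became 194 with DESeq2, 0 with library totals alone, 0 with only these ages, 0 with the block, 0 with both, and 0 to 2 when each sample was left out. The cause of these changes was not tested. Library totals alone moved the median log2 fold change of all genes to 0.10 at 18 months, 0.22 at 24 months and 0.12 between them, and Pdpk1 at 24 months, at -0.22 on that scale, did not pass (edgeR adjusted p = 0.097). With 3 or 4 samples per age precision was limited: the 95% interval of the log2 fold change of Igfbp3 between 24 and 18 months ran from -1.06 to 1.27, so a 2-fold change either way lay within it.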
